A study of Mus musculus with 29 samples.

Results

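The response of splenic macrophages to the loss of RNase T2 was compared between the Ly6C hi and the Ly6C low subset. All 13 splenic libraries of a series of 29 were used. Wild-type mice gave 3 Ly6C hi and 3 Ly6C low libraries, and Rnaset2-/- mice gave 3 Ly6C hi and 4 Ly6C low libraries. Rnaset2-/- mice lack both Rnaset2a and Rnaset2b, wild-type animals are C57BL/6 in the methods, and no animal was treated. The age of the mice, and whether each library came from its own mouse, are not given in the sources used here, so p-values measure the spread between these libraries. Both subsets were sorted by FACS as CD11b+ Ly6G- SiglecF- NK1.1- cells, and Fcgr4 (CD16.2) was required to be high in the Ly6C low gate and low in the Ly6C hi gate, after beads had depleted cells of other lineages. Genes entered when at least 3 of the 13 libraries held at least 1 RPM (reads scaled to the total of each library), which left 10838 of 23930 genes. The interaction is the change with genotype in Ly6C low macrophages minus that in Ly6C hi macrophages, on the log2(RPM + 1) scale, so a positive value marks a gene that moved upward in the Ly6C low subset relative to the Ly6C hi subset.

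RNase T2 degrades RNA inside endosomes and lysosomes, the compartments in which Toll-like receptors sense nucleic acids. TLR13 is the mouse receptor for bacterial ribosomal RNA. Ly6C hi cells are the classical monocytes that leave the bone marrow and give rise to Ly6C low cells, which patrol the vessel wall and are known for Fc receptors, scavenging and survival in the blood.

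The 13 libraries held 14059645 to 21167602 reads, and the deepest were the 3 Rnaset2-/- Ly6C hi libraries. Replicates of each group differed by more than counting error, so none was counted as a copy of another library's reads. Separate libraries of the same RNA can also differ by more, so this cannot show whether replicates are separate mice. Wild-type Ly6C hi replicates were closest, with a chi-square per gene of 6.2 to 8.7 between pairs. The deeper Rnaset2-/- Ly6C hi pairs gave 34.1 to 61.9, and Rnaset2-/- Ly6C low pairs up to 161.2. The small spread of wild-type Ly6C hi libraries enters the p-values of the joint fit. Genes of RNase T2 and the Ly6c family were not analysed here, so the genotype was not checked. The subset gate was described through identity genes, which include Fcgr4, itself part of both gates. Patrolling monocyte genes summed to 7431 to 9235 RPM in the Ly6C hi and 19321 to 35936 RPM in the Ly6C low libraries, and classical monocyte genes to 33939 to 42635 and 13339 to 21706 RPM. Lyz2 alone gave 20299 to 25750 RPM of the classical sum in Ly6C hi and 6753 to 13557 RPM in Ly6C low libraries. Among Rnaset2-/- Ly6C low libraries, replicates 1 and 2 stood apart. Their summed neutrophil and granulocyte precursor markers were 28154 and 15563 RPM, against 2848 and 2085 RPM in replicates 3 and 4. Wild-type Ly6C low libraries held 610 to 1380 RPM of these markers. Ly6C hi libraries held as much or more, 19449.5 to 22145 RPM in wild-type and 21967 to 40787 RPM in Rnaset2-/- mice. Erythroid markers summed to 1444 and 427 RPM in replicates 1 and 2 of Rnaset2-/- Ly6C low, against 117 and 136 RPM in replicates 3 and 4. B and plasma cell markers summed to 1408 and 1577 against 314 and 278 RPM. Replicate 2 also held the Y-linked gene Ddx3y at 163 RPM, where the other libraries held at most 1 read, and it was the only library with Xist below 1 RPM. Values without replicates 1 and 2 are therefore given beside the results that rest on them.

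**Figure D1:**
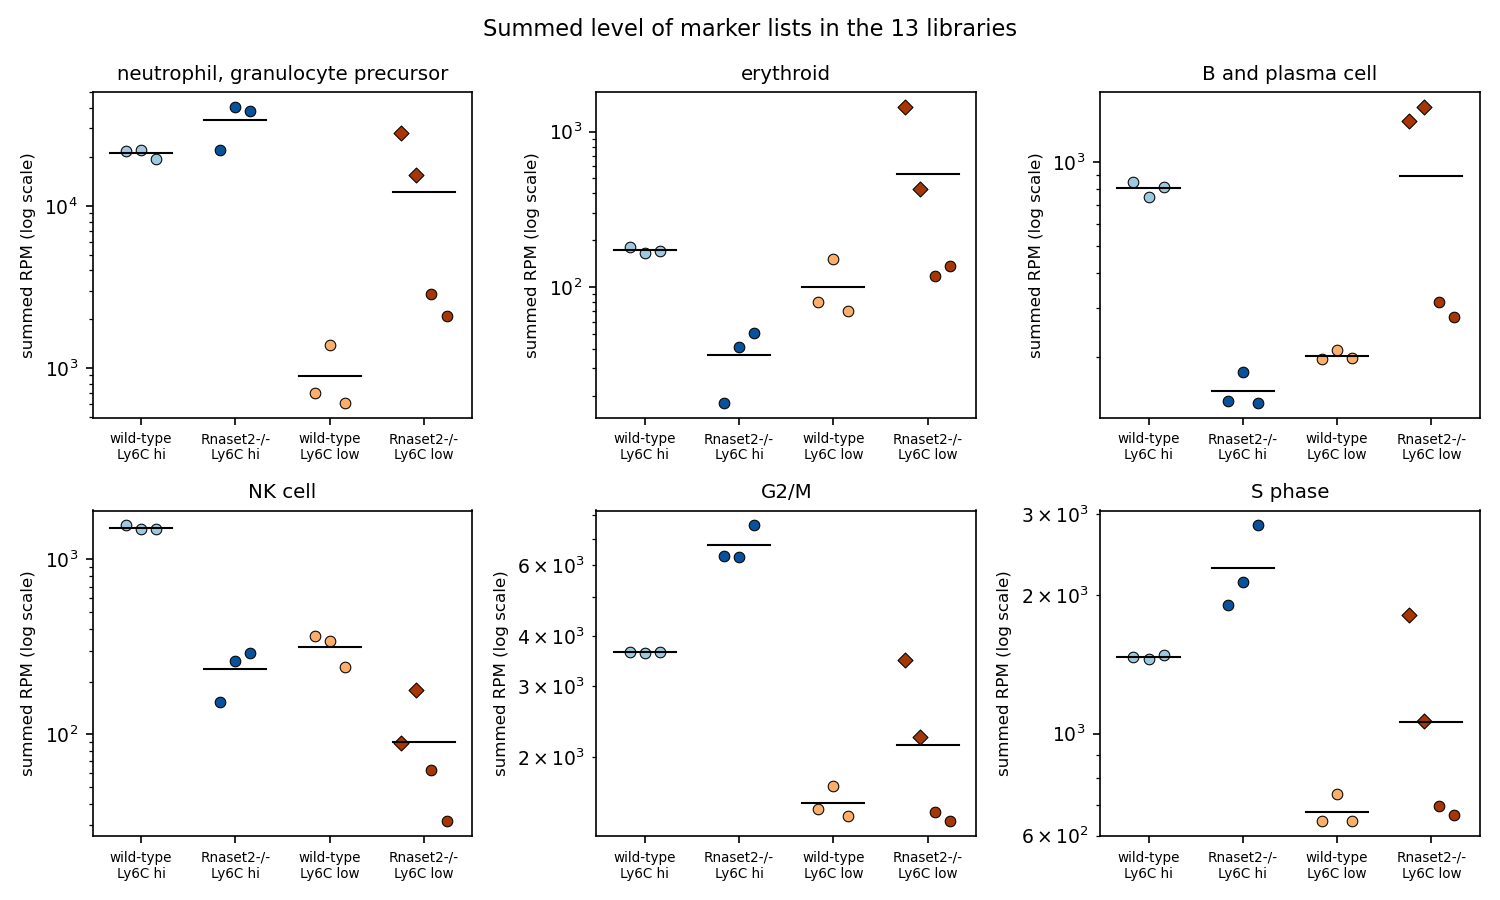
Summed RPM of marker lists (vertical axis, log scale) in each of the 13 libraries, by group; each point is a library, bars are group means, and diamonds mark replicates 1 and 2 of Rnaset2-/- Ly6C low. Among Ly6C low libraries, neutrophil, erythroid and B cell markers and the cell cycle lists are highest in these 2. Neutrophil markers and the cell cycle lists are also high in Ly6C hi libraries, and NK cell markers in wild-type Ly6C hi libraries.

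Loss of RNase T2 changed 1674 genes in Ly6C hi and 1743 in Ly6C low macrophages. In Ly6C hi macrophages 699 genes were higher and 975 lower in Rnaset2-/- mice, and in Ly6C low macrophages 908 were higher and 835 lower (limma, adjusted p below 0.05 and more than 1.5-fold), which is 6.45%, 9.0%, 8.38% and 7.7% of the tested genes. The lists of both subsets shared 394 genes, 23.5% of those called in Ly6C hi and 22.6% of those called in Ly6C low macrophages. Of these, 307 moved in the same direction and 87 in opposite directions. A call in 1 subset alone does not show a difference: 691 genes called in Ly6C hi alone and 842 called in Ly6C low alone had no called interaction. The balance of the subsets depends on how the spread is estimated, with 2311 and 860 calls when each was fitted alone and 2334 and 1572 with 1 weight per group. Across the 10838 genes the correlation of both responses was 0.27, given as a description since genes are not independent.

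The interaction itself was called for 1596 genes. The difference was positive for 905 genes (8.35% of those tested) and negative for 691 (6.38%). Among the positive genes, 458 fell in Ly6C hi macrophages and 363 rose in Ly6C low macrophages, and among the negative genes 254 rose in the former and 249 fell in the latter. No single contrast was called for 145 of the positive and 214 of the negative genes. Without replicates 1 and 2 of Rnaset2-/- Ly6C low, 807 of the 905 and 602 of the 691 were called again. That fit called more interactions in all, 1243 positive and 1070 negative of 10715 genes. Counts in lists stand against the shares over all tested genes, 8.35% positive and 6.38% negative with all libraries. Without replicates 1 and 2 they stand against the higher share of that fit. On whole reads recovered from the RPM, edgeR called 886 positive and 580 negative interactions. With RPM as deposited, 71.8% of the interaction calls were positive, against 56.7% with relative log expression factors. A threshold of more than 2-fold gave 70.1%.

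Shared genes, called in both subsets in the same direction with no call in the interaction, numbered 90 that were higher (0.83% of those tested) and 163 that were lower (1.5%). For 140 of these 253 genes the 95% interval of the interaction lay within 1 on the log2 scale, so a difference of more than that is still allowed for the rest. Opposite genes, called in both subsets with different signs, numbered 87 (0.803%), of which 61 were higher and 26 lower in Rnaset2-/- Ly6C low macrophages.

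**Figure D2:**
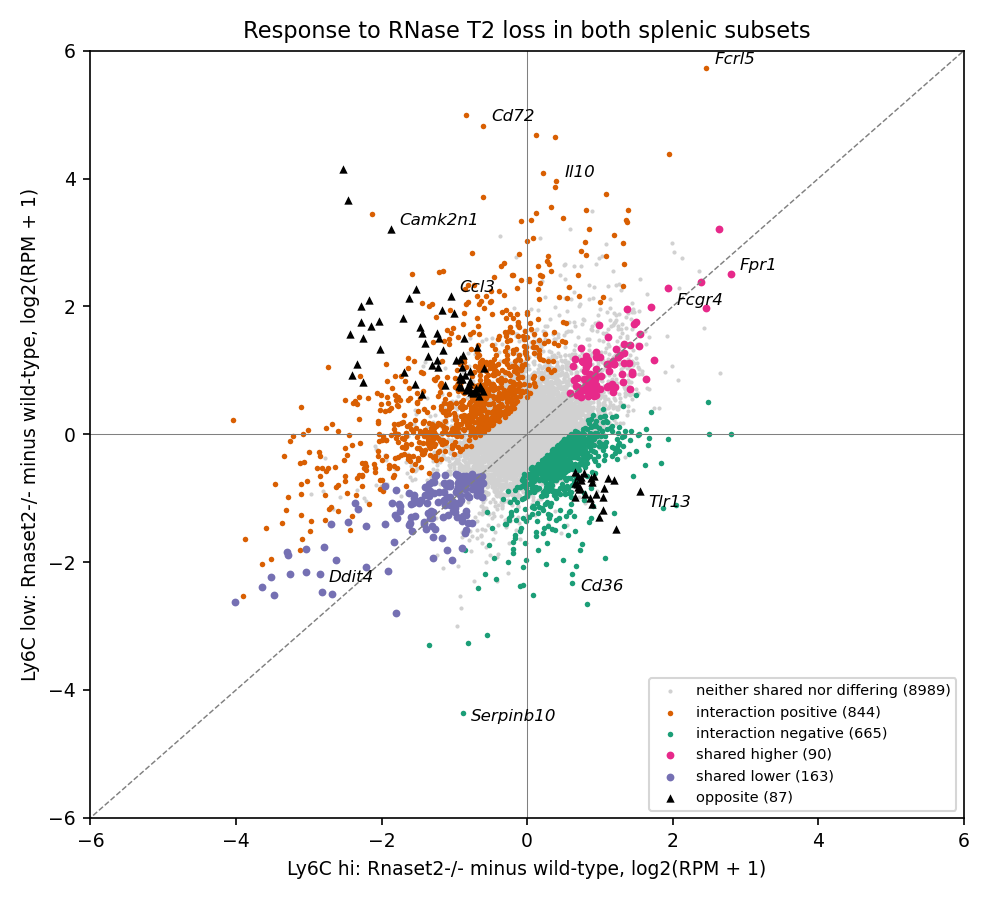
Change with genotype (Rnaset2-/- minus wild-type, log2(RPM + 1)) of the 10838 tested genes in Ly6C hi (horizontal axis) and Ly6C low macrophages (vertical axis). Each point is a gene, the dashed line marks equal responses, colours mark the classes with their numbers, and opposite genes (triangles) are left out of the interaction classes; Cd72 and Il10 lie high above the line, Serpinb10 far below it, and Fpr1 and Fcgr4 close to it.

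Promoters are shown for a gene of each kind: Cd72 (interaction positive), Serpinb10 (interaction negative), Tlr13 (opposite) and Fcgr4 (shared). Each run covers 250 bases before to 50 after the start in RefSeq (GRCm38.p6), on the coding strand. Capitals mark matches, on both strands, to an AP-1 motif (TGANTCA), a STAT motif (TTCNNNGAA), an ETS motif bound by PU.1 (GAGGAAG) and an antioxidant response motif (TGACNNNGC).
Cd72, chr4:43454577-43454876, minus strand: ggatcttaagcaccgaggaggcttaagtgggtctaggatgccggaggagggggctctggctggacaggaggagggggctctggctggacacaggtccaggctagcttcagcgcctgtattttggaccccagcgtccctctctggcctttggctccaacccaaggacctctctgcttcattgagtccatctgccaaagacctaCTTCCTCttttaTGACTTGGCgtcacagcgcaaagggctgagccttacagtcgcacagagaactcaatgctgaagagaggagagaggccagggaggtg
Serpinb10, chr1:107528753-107529052, plus strand: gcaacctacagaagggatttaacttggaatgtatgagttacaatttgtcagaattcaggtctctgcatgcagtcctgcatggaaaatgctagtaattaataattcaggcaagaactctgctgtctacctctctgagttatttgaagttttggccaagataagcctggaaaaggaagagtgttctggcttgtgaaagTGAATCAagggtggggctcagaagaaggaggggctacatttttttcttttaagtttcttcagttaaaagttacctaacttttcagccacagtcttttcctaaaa
Tlr13, chrX:106143025-106143324, plus strand: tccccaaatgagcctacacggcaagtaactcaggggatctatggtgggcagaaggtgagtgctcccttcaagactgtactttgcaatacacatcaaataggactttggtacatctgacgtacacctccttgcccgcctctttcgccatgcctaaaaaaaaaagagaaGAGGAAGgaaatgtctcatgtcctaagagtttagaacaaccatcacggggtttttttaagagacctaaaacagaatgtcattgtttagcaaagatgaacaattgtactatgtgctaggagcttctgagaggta
Fcgr4, chr1:171018676-171018975, plus strand: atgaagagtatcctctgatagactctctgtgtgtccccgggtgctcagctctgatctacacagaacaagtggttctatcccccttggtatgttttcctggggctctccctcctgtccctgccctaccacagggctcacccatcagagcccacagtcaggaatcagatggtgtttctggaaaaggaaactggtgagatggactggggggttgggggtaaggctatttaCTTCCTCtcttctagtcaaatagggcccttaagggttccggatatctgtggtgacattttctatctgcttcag
The ETS motif stood once in the promoters of Cd72, Tlr13 and Fcgr4, and was found in 13.6% of all 32851 promoters of this length. It was found in 14.1% of the promoters of all tested genes, in 15.2% for positive and 13.4% for negative interaction genes, in 13.2% for opposite genes, and in 22.1% and 19.0% for the shared higher and shared lower genes (77 and 147 promoters). The antioxidant response motif of Cd72 was found in 12.4% of all promoters and the AP-1 motif of Serpinb10 in 7.8%. RefSeq promoters matched 665 of the 905 positive and 546 of the 691 negative genes, and the shares are descriptions of letters, not of binding.

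Fc receptors and Fc receptor-like proteins, which bind antibodies or tune signals of immune receptors, are described first by count. The list also holds Cd72 and Cd22, which are neither. Of the 11 tested members, 4 had a positive and 0 a negative interaction, 6 rose in Ly6C low and 2 rose in Ly6C hi macrophages, and the median response was 0.70 in Ly6C low and -0.13 in Ly6C hi, against 0.012 and 0.025 over all tested genes. Cd72, an inhibitory receptor best known on B cells (chr4:43446462-43454628, GENCODE vM21, GRCm38), had the highest positive interaction among genes named by the rule. Its level was 17.4, 18.9 and 17.5 RPM in wild-type and 16, 7.79 and 8.64 RPM in Rnaset2-/- Ly6C hi libraries. In Ly6C low libraries it was 14, 15.0 and 11.8 RPM in wild-type and 635, 344, 335 and 386 RPM in Rnaset2-/- mice. All 4 Rnaset2-/- Ly6C low libraries thus lay far above the rest, and the interaction was 5.44 ± 0.33 (SE; adjusted p = 3.29e-06, limma) and 5.31 without replicates 1 and 2. Summed B and plasma cell markers were 314 and 278 RPM in replicates 3 and 4 and 197 to 212 RPM in wild-type Ly6C low libraries, and their part in the level of Cd72 was not tested. The other positive members were Fcrl5, Fcgr2b and Fcrla. Fcrla is also on the B cell list, and for Fcrl5 no difference in fold was shown (below), so the count says little about Fc receptors as a family.

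Fcrl5, an Fc receptor-like protein of B cells that binds IgG, was listed at 0, 0 and 0.14 RPM in wild-type Ly6C hi libraries and at 5.72, 4.31 and 4.04 RPM in those of Rnaset2-/- mice. The Ly6C low samples held 3.35, 2.88 and 1.61 RPM in wild-type and 271, 136, 164 and 194 RPM in Rnaset2-/- mice. It rose in both subsets (2.46 ± 0.24 and 5.73 ± 0.23; adjusted p = 4.09e-05 and 1.42e-08, limma), but wild-type Ly6C hi libraries held at most 2 reads, so the size of the interaction (3.28) depends on the added 1. With 0.1 added it was 0.97 (adjusted p = 0.204), and edgeR and DESeq2 gave -0.33 and -0.60 with adjusted p of 0.787 and 0.750, so no difference in fold between the subsets was shown for this gene. Fcgr2b, the inhibitory IgG receptor, was at 55.4 to 66.0 RPM in wild-type and 68.2 to 72.1 RPM in Rnaset2-/- Ly6C hi libraries. The Ly6C low subset had 27.7 to 28.3 RPM in wild-type and 56.6, 73.9, 107 and 122 RPM in Rnaset2-/- mice. Its interaction of 1.23 ± 0.33 (adjusted p = 0.0248, limma) was 1.69 without replicates 1 and 2, and its adjusted p rose as high as 0.0651 when wild-type Ly6C hi replicate 3 was left out.

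Camk2n1, an inhibitor of the calcium/calmodulin-dependent kinase CaMKII (chr4:138454314-138460123), moved in opposite directions. It was at 4.86, 6.31 and 6.02 RPM in wild-type and 0.61, 0.98 and 0.52 RPM in Rnaset2-/- Ly6C hi libraries. In the Ly6C low subset, levels were 5.24, 5.97 and 5.55 RPM in wild-type and 35.1, 82.5, 60.9 and 70.5 RPM in Rnaset2-/- mice. Wild-type libraries of both subsets lay together, and the loss of RNase T2 moved them apart by 5.08 ± 0.37 (adjusted p = 1.8e-05, limma). The fall in Ly6C hi was -1.87 ± 0.27 and the rise in Ly6C low 3.21 ± 0.25.

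Adam23, Cadm1, Asb2 and Aqp1, opposite genes too, had their highest level in replicate 1 of Rnaset2-/- Ly6C low. Adam23, a member of the ADAM family that binds integrins, was at 15.8 to 17.2 RPM in wild-type and 2.14 to 3.40 RPM in Rnaset2-/- Ly6C hi libraries. The Ly6C low subset had 13.4 to 17.0 RPM in wild-type and 253, 77.1, 30.7 and 38.5 RPM in Rnaset2-/- mice. Its interaction was 4.27 ± 0.71 (adjusted p = 0.00291, limma) and 3.33 without replicates 1 and 2. Cadm1, a cell adhesion molecule, and Asb2, a subunit of a ubiquitin ligase, were also highest in replicate 1, with interactions of 3.79 ± 0.49 and 3.76 ± 0.53 that became 3.26 and 3.24. Aqp1, a water channel, was at 38.3 and 20.7 RPM in replicates 1 and 2 but at 5.96 and 4.58 RPM in replicates 3 and 4, against 3.16 to 5.08 RPM in wild-type Ly6C low libraries. Its rise in Ly6C low macrophages was lost without replicates 1 and 2 (0.45, adjusted p = 0.249, limma), while its interaction, 3.77 with all libraries, was still called at 2.70. Among Ly6C low libraries, neutrophil, erythroid and B cell markers were highest in the same 2, and their part in these values was not tested.

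The remaining positive genes named by the rule were Cldn10, Blnk, Lox and F2rl1. Cldn10, a tight junction claudin, was at 0.28 to 0.85 RPM in all Ly6C hi libraries and at 17.4, 26.5, 31.7 and 33 RPM in Rnaset2-/- Ly6C low libraries, where wild-type libraries held 1 to 2 reads each. Its interaction was 4.26 ± 0.32 (adjusted p = 1.95e-05, limma). Lox, lysyl oxidase, held 0 to 2 reads in each wild-type Ly6C low library and reached 63.9, 12.6, 7.45 and 12.6 RPM in Rnaset2-/- mice. The 4 libraries agreed in direction, but the interaction (3.87 ± 0.71, adjusted p = 0.00441, limma) was not called by edgeR (adjusted p = 0.322) or DESeq2 (0.0513). Blnk, the B cell adaptor, was at 145 and 46.8 RPM in replicates 1 and 2 and at 16.9 and 17.6 RPM in replicates 3 and 4, all above the 4.92 to 6.57 RPM of wild-type Ly6C low libraries. F2rl1, a protease-activated receptor, fell from 10.7 to 13.4 RPM in wild-type to 0.49 to 1.00 RPM in Rnaset2-/- Ly6C hi libraries (-2.74 ± 0.60, adjusted p = 0.00679, limma). Its Ly6C low libraries held 0 to 1.10 RPM in wild-type and 6.62, 5.89, 0.28 and 0.28 RPM in Rnaset2-/- mice, so only replicates 1 and 2 were high. The interaction was 3.79 with all libraries and 2.56 without these replicates.

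Il10, the anti-inflammatory cytokine, rose in Ly6C low macrophages of Rnaset2-/- mice (chr1:131019845-131024974). Its level was 2.64, 1.04 and 2.03 RPM in wild-type and 2.36, 4.90 and 1.14 RPM in Rnaset2-/- Ly6C hi libraries, which overlapped. The Ly6C low samples held 4.61, 5.56 and 7.52 RPM in wild-type and 80.4, 55.8, 157 and 167 RPM in Rnaset2-/- mice, with the 2 libraries richest in neutrophil markers at the lower end. The interaction was 3.57 ± 0.61 (adjusted p = 0.00317, limma), and 4.26 without replicates 1 and 2. Of 18 tested genes of the anti-inflammatory cytokine list, 3 had a positive interaction (Il10, Bcl3 and Ptgs2) and 2 a negative one (Il1rn and Ebi3). Bcl3, a nuclear IκB protein, went from 67.8 to 74.0 RPM in wild-type to 144 to 225 RPM in Rnaset2-/- Ly6C low libraries, while its Ly6C hi libraries overlapped. Its interaction was 1.43 ± 0.27 (adjusted p = 0.00543, limma). Il1rn, the interleukin-1 receptor antagonist, rose in Ly6C hi macrophages (1.27 ± 0.23) and changed by 0.11 in Ly6C low macrophages, an interaction of -1.16 ± 0.32 (adjusted p = 0.027, limma).

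Chemokines attract monocytes, neutrophils and other leukocytes. Of 27 tested chemokines and receptors, 8 had a positive and 1 a negative interaction. In all, 11 fell and 1 rose in Ly6C hi, and 5 fell and 4 rose in Ly6C low macrophages. When replicates 1 and 2 were left out, 8 fell and 5 rose in Ly6C low macrophages, with 9 positive and 5 negative interactions, and the median interaction went from 0.64 to 0.11. Ccl3 was at 1004, 999 and 947 RPM in wild-type and 510.1, 412 and 385 RPM in Rnaset2-/- Ly6C hi libraries. The Ly6C low subset had 524, 362 and 483 RPM in wild-type and 1021, 1999.8, 2452 and 3234 RPM in Rnaset2-/- mice. Neither pair of groups overlapped, and the interaction was 3.21 ± 0.45 (adjusted p = 0.00123, limma) and 3.75 without replicates 1 and 2. Ccl2 was at 224 to 242 RPM in wild-type and 39.5 to 83.4 RPM in Rnaset2-/- Ly6C hi libraries, and in Ly6C low libraries at 35.1 to 38.9 RPM in wild-type and 40.0, 55.9, 136 and 132 RPM in Rnaset2-/- mice. The interaction of Ccl2 was 3.03 ± 0.57 (adjusted p = 0.00474, limma), and its change in Ly6C low macrophages, 1.09 (adjusted p = 0.0571), was called only without replicates 1 and 2 (1.89). Cxcl2 fell in Ly6C hi macrophages from 181 to 215 RPM to 23.0 to 41.0 RPM (-2.39 ± 0.27, adjusted p = 8.75e-05, limma), and its Ly6C low libraries overlapped (interaction 2.87 ± 0.37). Ccl4 differed by 2.60 ± 0.45. Ccl5, Ccl22, Ccr3 and Ccr7 were shared lower genes instead, and Ccl5 is also made by NK cells.

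Immediate early and dissociation genes, which sorting and stress induce within minutes, fell in Ly6C hi macrophages. Of 42 tested genes, 19 fell and 1 rose in Ly6C hi, 4 fell and 3 rose in Ly6C low macrophages, and 16 had a positive and 2 a negative interaction. The median response was -0.65 in Ly6C hi and -0.05 in Ly6C low. Jun was at 1736, 1763 and 1684 RPM in wild-type and 734, 537 and 648 RPM in Rnaset2-/- Ly6C hi libraries, while the Ly6C low libraries of both genotypes spanned 1028 to 1818 RPM and overlapped. Its interaction was 1.22 ± 0.25 (adjusted p = 0.00752, limma). Maff, a small transcription factor of the AP-1 type, and Per1, a clock gene induced by glucocorticoids, fell in Ly6C hi macrophages by 1.82 and 1.89 on the log2 scale and had interactions of 1.91 ± 0.31 and 1.36 ± 0.26. Whether handling during sorting differed between groups was not tested.

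Spic, the transcription factor of red pulp macrophages, was at 4.02 to 7.49 RPM in all Ly6C hi libraries. For Ly6C low macrophages the values were 12, 13.7 and 8.78 RPM in wild-type and 132, 48.0, 49.2 and 68.6 RPM in Rnaset2-/- mice (interaction 2.32 ± 0.44, adjusted p = 0.00489, limma). Hmox1, heme oxygenase, was at 165 to 213 RPM in Ly6C hi libraries, and rose in Ly6C low libraries from 362, 338 and 328 RPM to 753, 622, 978 and 1295 RPM. The interaction of Hmox1 was 1.38 ± 0.30 and that of Blvrb, biliverdin reductase, 1.48 ± 0.35. Of 18 heme and iron genes tested, 8 rose and 1 fell in Ly6C low macrophages, 2 rose and 1 fell in Ly6C hi macrophages, and 3 had a positive interaction.

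The list of clearance receptors holds genes by which macrophages bind and take up dying cells. Of 22 tested genes, 8 had a positive interaction and 1 (Cd36) a negative one, and 13 had no called interaction. In this list 6 fell and 0 rose in Ly6C hi macrophages, and 4 rose and 4 fell in Ly6C low macrophages. Cd5l, a secreted protein of tissue macrophages, was at 15.6 to 18.4 RPM in wild-type and 3.87 to 8.68 RPM in Rnaset2-/- Ly6C hi libraries. The Ly6C low subset had 24.4 to 41.5 RPM in wild-type and 431, 173, 87.4 and 138 RPM in Rnaset2-/- mice (interaction 3.75 ± 0.58, adjusted p = 0.00188, limma). Axl, a receptor for apoptotic cells, fell in Ly6C hi macrophages from 33.8 to 41.4 RPM to 10.4 to 13.1 RPM, and its Ly6C low libraries overlapped (interaction 1.62 ± 0.35). The 9 tested red pulp macrophage markers, to which Spic, Hmox1 and Cd5l belong, summed to 942 to 1648 RPM in Rnaset2-/- and 505 to 584 RPM in wild-type Ly6C low libraries, against 294 to 447 RPM in Ly6C hi libraries. Hmox1 alone was 622 to 1295 RPM in Rnaset2-/- and 328 to 362 RPM in wild-type Ly6C low libraries. Of the 9, 4 rose and 2 (Cd163 and Mrc1, scavenger and mannose receptors) fell in Ly6C low macrophages, and the list's median there was 0.46, and -0.01 without replicates 1 and 2. In such bulk samples more cells of a type and more RNA per cell cannot be told apart.

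Patrolling monocyte identity genes gained in the Ly6C hi subset. Of 22 tested genes, 8 had a negative and 2 a positive interaction, 9 rose and 1 fell in Ly6C hi macrophages, and 5 rose and 2 fell in Ly6C low macrophages. Cd36, a scavenger receptor for lipids (chr5:17781690-17888801), was at 18.6, 16.7 and 18.7 RPM in wild-type and 15.6, 34.6 and 30.3 RPM in Rnaset2-/- Ly6C hi libraries, which overlapped. The Ly6C low subset had 563, 604 and 522 RPM in wild-type and 41.5, 181, 149 and 134 RPM in Rnaset2-/- mice. The interaction was -2.94 ± 0.61 (adjusted p = 0.00766, limma) and -2.53 without replicates 1 and 2. Cd9, a tetraspanin, was at 719.9 to 985 RPM in wild-type and 143 to 331 RPM in Rnaset2-/- Ly6C low libraries (interaction -2.54 ± 0.47). Eno3, an enolase, rose in Ly6C hi macrophages from 29.4 to 31.8 RPM to 65.1 to 101 RPM (1.46 ± 0.30, adjusted p = 0.00456, limma), and in Ly6C low libraries changed by -0.65 (adjusted p = 0.11). Without replicates 1 and 2 the interaction of Eno3 was -1.58 and its change in Ly6C low macrophages -0.13.

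Pecam1 and Clec4a3 were the 2 genes of that list with a positive interaction. Pecam1, the adhesion molecule CD31, was at 43.1 to 45.0 RPM in wild-type and 71.2 to 160.0 RPM in Rnaset2-/- Ly6C hi libraries, and at 266 to 324 RPM in wild-type and 1456 to 2195 RPM in Rnaset2-/- Ly6C low libraries. It rose in both, more in Ly6C low macrophages (interaction 1.33 ± 0.34, adjusted p = 0.0203, limma), with an adjusted p of 0.052 when wild-type Ly6C low replicate 3 was left out. Pecam1 is also on the list of endothelial and stromal markers, 15 genes of which 5 were tested. The sum of the 15, 1475 to 2214 RPM in the 4 Rnaset2-/- Ly6C low libraries, was mostly Pecam1. The median response of the patrolling list was 0.59 in Ly6C hi and -0.20 in Ly6C low, the latter 0.18 without replicates 1 and 2, where 6 genes had a positive and 8 a negative interaction.

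Serpinb10, a protease inhibitor of myeloid cells, fell most in the Ly6C low subset among the named genes. Its level was 324, 315 and 316 RPM in wild-type and 186, 139 and 148 RPM in Rnaset2-/- Ly6C hi libraries. Ly6C low libraries held 306, 316 and 276 RPM in wild-type and 25.3, 20.5, 11.8 and 5.14 RPM in Rnaset2-/- mice. The gene was thus level between wild-type subsets, and the loss of RNase T2 lowered it by 0.88 (adjusted p = 0.0956) in Ly6C hi and by 4.36 (adjusted p = 2.76e-06) in Ly6C low macrophages on the log2 scale, an interaction of -3.48 ± 0.49 (adjusted p = 0.00123, limma). Flt1, a receptor for VEGF, fell in both subsets and more in the Ly6C low subset. It was at 19.7 to 27.0 RPM in wild-type and 7.32 to 8.38 RPM in Rnaset2-/- Ly6C hi libraries, and at 36.6 to 51.2 RPM and 2.70 to 4.82 RPM in Ly6C low libraries (interaction -1.95 ± 0.30, adjusted p = 0.00188, limma).

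Cited4, a transcriptional cofactor, and Cd83, a marker of activated antigen-presenting cells, were high only in wild-type Ly6C low libraries. Cited4 was at 67.4, 42.1 and 55.3 RPM there, and at 4.05, 7.52, 13.6 and 7.96 RPM in Rnaset2-/- mice, with 3.95 to 12.4 RPM in Ly6C hi libraries (interaction -3.48 ± 0.53, adjusted p = 0.00182, limma). Cd83 was at 37.3, 102 and 39.8 RPM in wild-type and 3.56, 4.47, 8.72 and 4.86 RPM in Rnaset2-/- Ly6C low libraries (interaction -2.59 ± 0.55, adjusted p = 0.00891, limma).

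Ly6i, a lymphocyte antigen 6 gene, split the Rnaset2-/- Ly6C low libraries. It rose in Ly6C hi macrophages from 30.3, 32.1 and 27.0 RPM to 113, 120.4 and 110.1 RPM. Ly6C low libraries held 164, 148 and 161 RPM in wild-type and 30.8, 28.7, 165 and 181 RPM in Rnaset2-/- mice, so that only replicates 1 and 2 were low. The interaction was -3.15 ± 0.81 (adjusted p = 0.0216, limma), with adjusted p up to 0.0547 when a single library was left out, and -1.85 (adjusted p = 3.63e-06) without replicates 1 and 2.

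Rbm7 and Ifi203, an RNA exosome adaptor and an interferon-inducible protein, and Coa6, a cytochrome c oxidase assembly factor, shared a pattern among replicates. In wild-type Ly6C low libraries replicate 2 was highest for all 3 genes, at 138 RPM for Rbm7 against 37.0 and 61.3 RPM. In Rnaset2-/- Ly6C hi libraries replicate 3 was highest, at 133 RPM for Rbm7 against 28.2 and 70.5 RPM. Rnaset2-/- Ly6C low libraries were low for each, at 9.25 to 18.7 RPM for Rbm7, 2.42 to 5.50 RPM for Ifi203 and 2.20 to 3.26 RPM for Coa6. The interactions were -2.80 ± 0.70, -2.73 ± 0.67 and -3.01 ± 0.59, and the Ly6C hi groups overlapped for all 3 genes.

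Formyl peptide, Cd300 and paired receptors, activating and inhibitory receptors of myeloid cells, had more negative than positive interactions. Of 21 tested formyl peptide, Cd300 and paired receptors, 8 had a negative and 1 a positive interaction, and 9 rose and 0 fell in Ly6C hi macrophages, against 5 and 3 in Ly6C low macrophages. Cd300e, an activating receptor of monocytes, was at 4.09, 6.52 and 6.79 RPM in wild-type and 30.7, 40.9 and 29.7 RPM in Rnaset2-/- Ly6C hi libraries. Its Ly6C low libraries were at 713, 665 and 717 RPM in wild-type and 638, 997, 1268 and 1179 RPM in Rnaset2-/- mice, which overlapped (interaction -1.98 ± 0.35, adjusted p = 0.00362, limma). Without replicates 1 and 2 it rose in Ly6C low macrophages too (0.88) and the interaction was -1.61. Clec12a, an inhibitory lectin, and Trem3, an activating receptor, rose in Ly6C hi macrophages by 1.53 ± 0.19 and 1.63 ± 0.21, and their Ly6C low changes were 0.00 and 0.08. Clec7a, the β-glucan receptor dectin-1, fell from 1081 to 1148 RPM to 635 to 838 RPM in Ly6C hi libraries, where its change of -0.46 stayed within 1.5-fold. Its Ly6C low libraries fell from 473 to 542 RPM to 115 to 149 RPM (interaction -1.47 ± 0.17, adjusted p = 0.000293, limma).

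**Figure D3:**
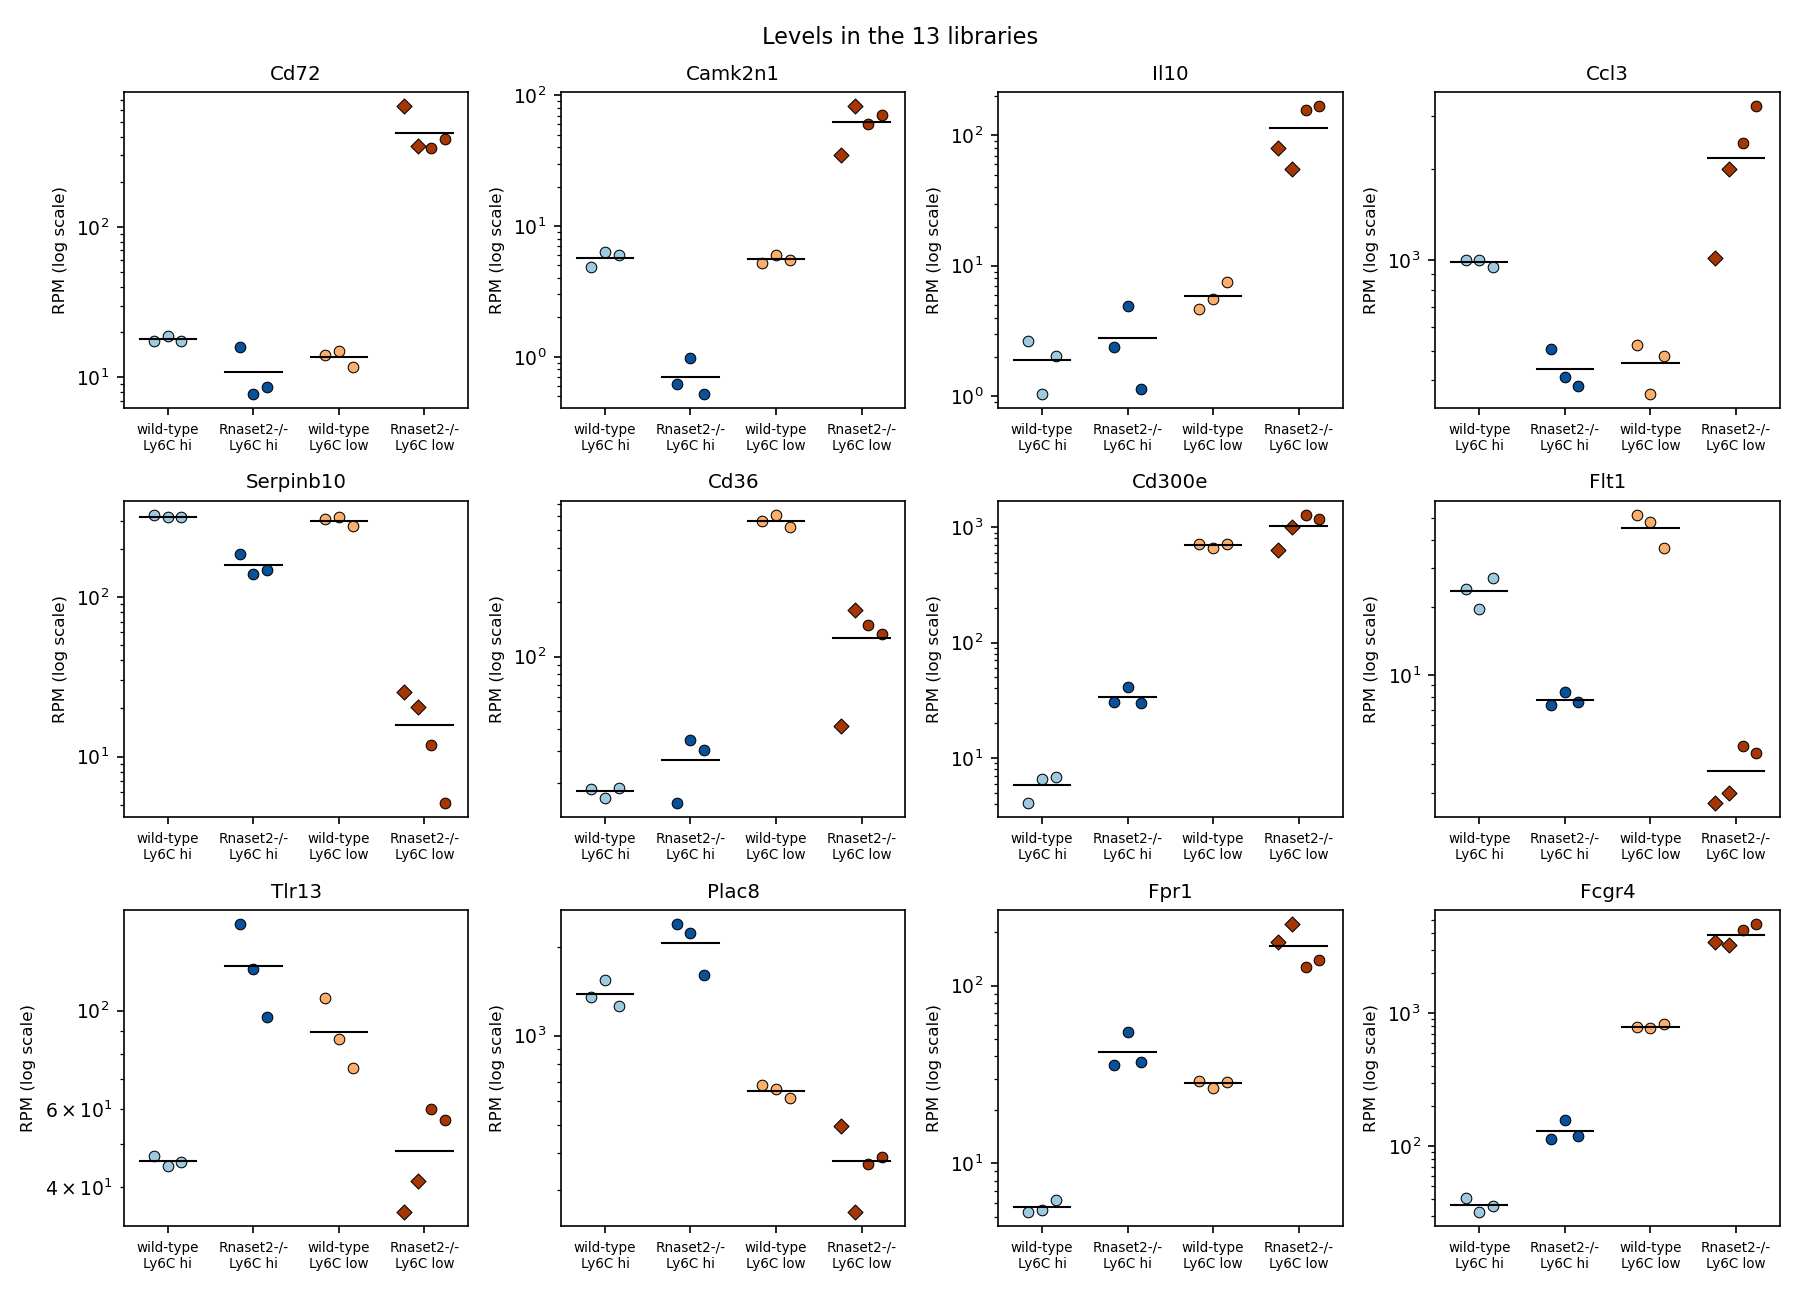
Level in RPM (vertical axes, log scale) of 12 genes in each library, by group; bars are group means and diamonds mark replicates 1 and 2 of Rnaset2-/- Ly6C low. Cd72, Camk2n1, Il10 and Ccl3 are highest in Rnaset2-/- Ly6C low libraries, Serpinb10, Cd36 and Flt1 fall there, Cd300e rises in Ly6C hi libraries, Tlr13 and Plac8 move in opposite directions, and Fpr1 and Fcgr4 rise in both subsets.

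Tlr13, the receptor for bacterial ribosomal RNA (chrX:106143204-106160493), was an opposite gene. Ly6C hi libraries held 47.1, 44.8 and 45.5 RPM in wild-type and 157, 124 and 97.0 RPM in Rnaset2-/- mice. Ly6C low libraries held 107, 86.5 and 74.5 RPM in wild-type and 35.2, 41.4, 60.1 and 56.7 RPM in Rnaset2-/- mice. The genotypes did not overlap in either subset, with a rise of 1.55 ± 0.23 in Ly6C hi, a fall of -0.88 ± 0.21 in Ly6C low and an interaction of -2.43 ± 0.31 (adjusted p = 0.000733, limma). Without replicates 1 and 2 the fall was -0.52, under 1.5-fold, and the interaction -2.07. Of 26 tested Toll-like receptor and endosomal chaperone genes, Tlr3 and Tlr12 had a positive interaction (1.47 and 1.82) and Tlr13 the only negative one. Tlr4, the receptor for lipopolysaccharide, had an interaction of -0.55, within 1.5-fold.

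Plac8, a gene of classical monocytes, was opposite in the same way, at 1262 to 1544 RPM in wild-type and 1599 to 2379 RPM in Rnaset2-/- Ly6C hi libraries, and at 615 to 681 RPM and 254 to 495 RPM in Ly6C low libraries (interaction -1.51 ± 0.28, adjusted p = 0.00489, limma). The other opposite genes lower in Ly6C low macrophages and named by the rule were Glt1d1, Alox5, Ncor1, Hnrnpa0 and F630028O10Rik. Alox5, the lipoxygenase that starts leukotriene synthesis, was at 23.4 to 28.4 RPM in wild-type and 32.2 to 64.8 RPM in Rnaset2-/- Ly6C hi libraries, and at 33.8 to 62.7 RPM and 13.1 to 28.7 RPM in Ly6C low libraries. Its interaction was -2.29 ± 0.40 (adjusted p = 0.00329, limma). Glt1d1, a glycosyltransferase-like gene, had the largest difference of the 5, -2.70 ± 0.35. Ncor1, a nuclear receptor corepressor, was at 83.7, 117, 153 and 246 RPM in Rnaset2-/- Ly6C low libraries, which overlapped the wild-type libraries at 229.8 to 326 RPM, and its fall there was not called without replicates 1 and 2 (-0.43, adjusted p = 0.15).

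Fpr1 and Upp1 led the shared higher genes. Fpr1, the formyl peptide receptor that senses bacterial peptides, was at 5.34, 5.48 and 6.23 RPM in wild-type and 35.8, 54.7 and 37.2 RPM in Rnaset2-/- Ly6C hi libraries. The Ly6C low subset had 29.2, 26.6 and 28.7 RPM in wild-type and 176, 221, 128 and 140.2 RPM in Rnaset2-/- mice. The rise was 2.80 ± 0.19 in Ly6C hi and 2.50 ± 0.18 in Ly6C low macrophages, and the interaction was -0.30 with a 95% interval from -0.88 to 0.27 (adjusted p = 0.473, limma). Upp1, uridine phosphorylase, which breaks down the nucleoside uridine, went from 1.26 to 2.15 RPM to 12.8 to 17.0 RPM in Ly6C hi libraries and from 1.26 to 2.27 RPM to 31.7, 13.3, 29.2 and 31.8 RPM in Ly6C low libraries. Its interaction was 0.57 with an interval from -0.31 to 1.46, and without replicates 1 and 2 it was called, at 0.90 (adjusted p = 0.0385, limma).

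Fcgr4, the activating IgG receptor CD16.2 on which both gates were set, rose from 40.6, 32.1 and 35.6 RPM to 112, 157 and 119 RPM in Ly6C hi libraries and from 781, 769 and 821 RPM to 3394, 3231, 4238 and 4635 RPM in Ly6C low libraries. Its level in both subsets is in part set by the sort. The interaction was 0.35 (interval -0.18 to 0.88), and 0.62 (adjusted p = 0.0352, limma) without replicates 1 and 2. A gradient within the shared class was seen for Cd63, Gca, Hist1h2ab and Ccno, which were high in Ly6C hi libraries and in replicates 1 and 2 of Rnaset2-/- Ly6C low. Cd63, a tetraspanin of late endosomes, was at 132, 104, 20.4 and 22.7 RPM in those 4 libraries, against 9.97 to 13.5 RPM in wild-type Ly6C low libraries. The histone gene Hist1h2ab was at 146, 78.4, 24.6 and 20.2 RPM, against 13.1 to 22.6 RPM. Neutrophil precursor markers split the same libraries, and their part was not tested. Of the 90 shared higher genes, 46 were still shared without replicates 1 and 2.

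Cell cycle genes had this split as a whole. Of 49 tested G2/M genes, 22 rose in Ly6C hi and 19 rose and 1 fell in Ly6C low macrophages, with 6 negative and 0 positive interactions and 6 shared higher genes. The median response was 1.24 in Ly6C hi and 1.00 in Ly6C low macrophages. Summed G2/M levels were 3638 to 3654 RPM in wild-type and 6304 to 7555 RPM in Rnaset2-/- Ly6C hi libraries. In Ly6C low libraries they were 1427 to 1693 RPM in wild-type and 3494, 2243, 1464 and 1384 RPM in Rnaset2-/- mice, so that only replicates 1 and 2 lay above the wild-type range. Without these the median in Ly6C low was 0.26, 7 genes rose there, and 29 of the 49 had a negative interaction. Of 39 S phase genes, 10 rose in Ly6C hi and 3 in Ly6C low macrophages, with 2 negative interactions, which became 0 genes in Ly6C low and 11 negative interactions without replicates 1 and 2.

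Single cell cycle genes followed. Mki67, the proliferation marker, was at 107 to 116 RPM in wild-type and 178 to 234 RPM in Rnaset2-/- Ly6C hi libraries, and at 4.96, 13 and 5.27 RPM in wild-type and 78.0, 41.7, 10.5 and 13 RPM in Rnaset2-/- Ly6C low libraries. Its interaction was 0.78 ± 0.75 (adjusted p = 0.514, limma), and -0.27 without replicates 1 and 2. Tmpo, a lamina-associated protein, rose in Ly6C hi libraries from 813, 848 and 848 RPM to 1269, 1223 and 1169 RPM and overlapped in Ly6C low libraries (interaction -0.83 ± 0.13, adjusted p = 0.00263, limma). Replicates 1 and 2 did not decide this gene, whose interaction was -0.91 without them.

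Shared lower genes included genes of lymphocytes. Of 20 tested NK cell markers, 19 fell in Ly6C hi and 16 in Ly6C low macrophages, 10 had a positive interaction and 9 were shared. The markers summed to 1490 to 1569 RPM in wild-type and 154 to 291 RPM in Rnaset2-/- Ly6C hi libraries, and to 243 to 365 RPM and 31.7 to 179 RPM in Ly6C low libraries. Klrc2, a receptor of NK cells, was at 20 to 22.8 RPM in wild-type and 0.76 to 1.38 RPM in Rnaset2-/- Ly6C hi libraries, and at 4.42 to 7.82 RPM and 0.14 to 1.56 RPM in Ly6C low libraries. Gimap3, a GTPase of lymphocytes, and Klri1, another receptor of NK cells, fell in both subsets too. Without replicates 1 and 2, Klrc2 (0.98) and Gimap3 (1.36) had a positive interaction. The part of NK cells in the levels of Adamts14, a secreted protease with 45.3 to 52.5 RPM in wild-type and 1.65 to 5.83 RPM in Rnaset2-/- Ly6C hi libraries, was not tested.

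T cell markers fell in Ly6C hi macrophages (16 of 17 tested genes) and in Ly6C low macrophages for 3 genes, with 13 positive interactions. Dendritic cell markers fell in Ly6C hi macrophages for 14 of 18 genes, with 7 positive interactions. Erythroid markers had 11 positive interactions of 12 tested genes and B and plasma cell markers 6 of 12. In all, 55 of the 905 positive and 0 of the 691 negative interaction genes were on the lists of other cell types, of whose genes 129 were tested.

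Ddit4, a stress-induced inhibitor of mTORC1, fell in both subsets and is on none of the lists of other cells. It was at 279.7, 318 and 269 RPM in wild-type and 32.9, 43.4 and 31.7 RPM in Rnaset2-/- Ly6C hi libraries. Ly6C low libraries held 1092, 1514 and 1209 RPM in wild-type and 545, 223, 246 and 191 RPM in Rnaset2-/- mice. The fall was -2.84 ± 0.28 and -2.18 ± 0.26, with an interaction of 0.66 (interval -0.17 to 1.49, adjusted p = 0.266, limma). Rnf150, a ring finger protein, fell by 2.21 in Ly6C hi and by 1.43 in Ly6C low macrophages on the log2 scale. Gm5115 went from 9.24 to 12.8 RPM to 1.61 to 4.07 RPM in Ly6C hi libraries and from 17.0 to 23.4 RPM to 3.56 to 9.22 RPM in Ly6C low libraries.

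Tnf, the inflammatory cytokine, was at 0.38 to 2.94 RPM and Il6 at 0.38 to 2.63 RPM in all libraries, and neither had a called change or interaction. Ifnb1 did not reach the level required for testing and was at most 0.97 RPM. Of 15 tested inflammatory cytokines, 5 had a positive and 1 a negative interaction. Il1b, interleukin-1β, was at 206 to 228 RPM in wild-type and 425 to 614 RPM in Rnaset2-/- Ly6C hi libraries, and at 311 to 348 RPM and 1155 to 2008 RPM in Ly6C low libraries. It rose in both subsets, and the interaction of 1.00 ± 0.28 (adjusted p = 0.0291, limma) had an adjusted p up to 0.0681 when a single library was left out.

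Of 34 interferon-stimulated genes, 5 rose and 1 fell in Ly6C low and 0 rose and 2 fell in Ly6C hi macrophages, with 3 positive interactions (Rsad2, Oasl1 and Bst2). The share of positive interactions was near that of all tested genes, 8.35%. Rsad2, the antiviral protein viperin, was at 104, 22.0, 16.2 and 21.7 RPM in Rnaset2-/- and at 2.75 to 6.11 RPM in wild-type Ly6C low libraries (interaction 2.90 ± 0.70, adjusted p = 0.016, limma). Mx1 moved down in Ly6C low libraries, from 21.7 to 22.8 RPM to 4.27, 5.11, 13.1 and 18.8 RPM, and was not called without replicates 1 and 2 (-0.41, adjusted p = 0.171, limma). Oas1a and Ifih1 had interactions of -0.03 and 0.49, the latter 0.96 (adjusted p = 0.0172, limma) without them. Without replicates 1 and 2, 18 of the 34 genes rose in Ly6C low macrophages and 13 had a positive interaction.

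Lysosomal and metabolic lists are given by count, beside a called interaction for 14.7% of all tested genes with all libraries. Of 45 lysosomal genes 1 had a positive and 2 a negative interaction, with medians of 0.05 in Ly6C hi and -0.01 in Ly6C low macrophages. These became 8 positive and 3 negative interactions without replicates 1 and 2. Calls over all genes rose there too, from 905 positive and 691 negative of 10838 to 1243 and 1070 of 10715. Gusb, a glucuronidase, had an interaction of -1.12 ± 0.22 and Mcoln1, a lysosomal calcium channel, of -1.73 ± 0.39. Of 21 cholesterol synthesis genes 1 had an interaction, of 17 LXR targets 2 (5 without replicates 1 and 2), and of 13 tested cytosolic ribosomal protein genes 1. Of 16 MHC class II presentation genes, 6 fell in Ly6C hi and 4 in Ly6C low macrophages, 0 rose, 3 were shared lower genes and 1 had a positive interaction. With those libraries left out, 8 fell in Ly6C low macrophages and 1 had a positive and 2 a negative interaction.

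**Figure D4:**
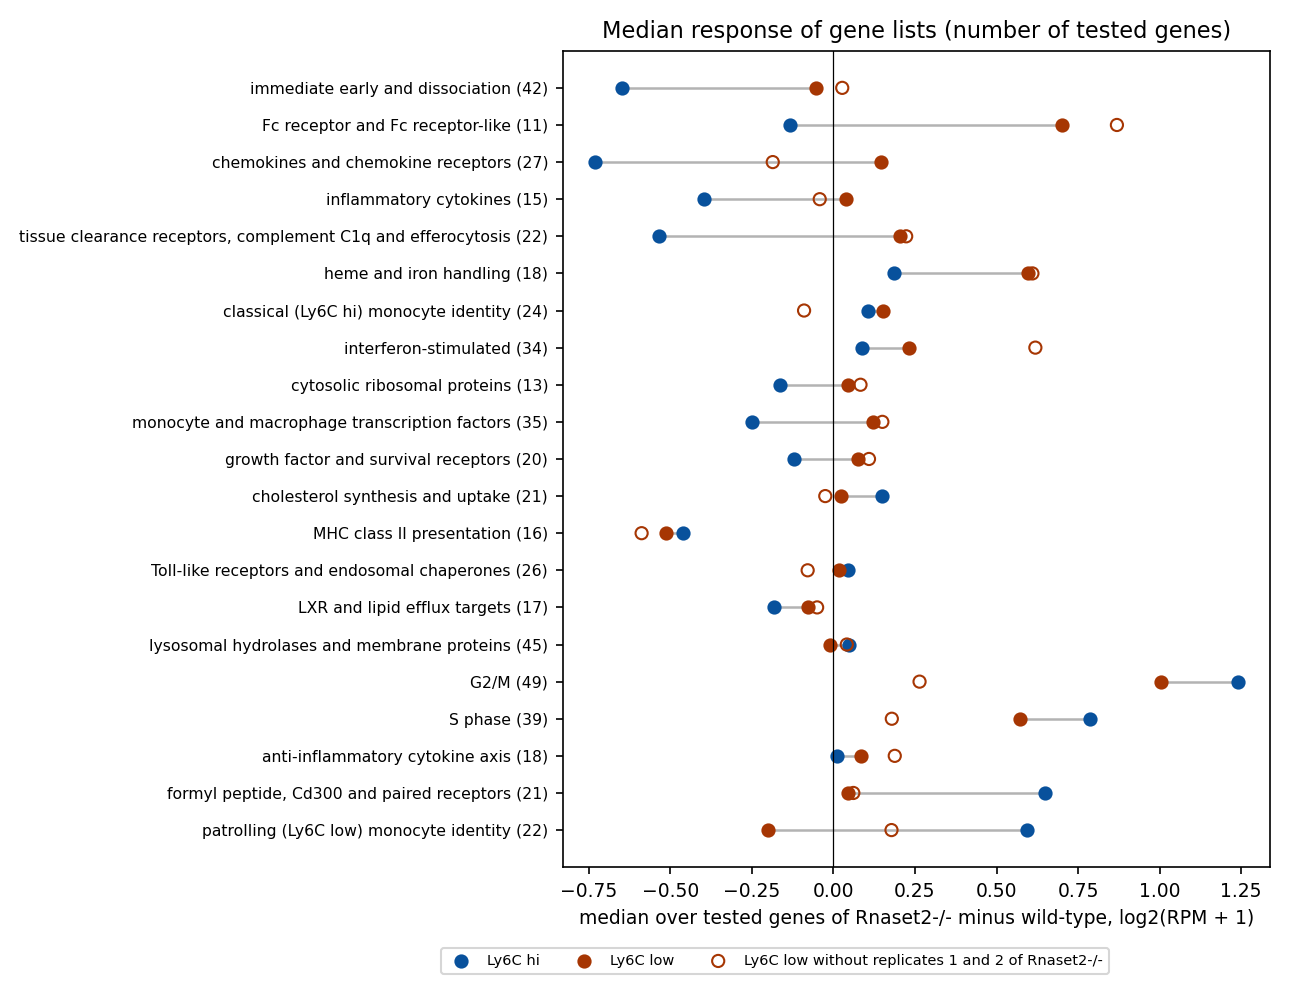
Median over tested genes of the change with genotype (log2(RPM + 1), horizontal axis) of each program list, lists of other cell types left out, in Ly6C hi (blue) and Ly6C low (brown) macrophages, with the number of tested genes; open circles are Ly6C low without replicates 1 and 2 of Rnaset2-/-. Chemokines and immediate early genes lie farthest to the left among these in Ly6C hi, at -0.73 and -0.65, and the G2/M median of Ly6C low moves from 1.00 to 0.26 without the 2 libraries.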

How the data were processed

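RNA of sorted splenic macrophages had been amplified with an Ion AmpliSeq transcriptome panel and sequenced on the Ion Proton. The authors deposited RPM for 23930 genes by symbol (Torrent Suite, AmpliSeqRNA plug-in), and the submitters' processing notes name the build mm10. Whole reads were recovered for 100.0% of values within 0.1 read. The spleen libraries held 14059645 to 21167602 reads, so 3 reads, taken as the floor, are 0.142 to 0.213 RPM (counting error only). Groups follow the sample titles.

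Each library was divided by its relative log expression factor. Genes reaching 1 RPM in 3 or more libraries entered limma 3.58.1 (R 4.3.3; lmFit, eBayes with trend, two-sided) on log2(value + 1), with 4 group means in 1 fit. Calls needed a Benjamini-Hochberg adjusted p below 0.05 over all 10838 genes and more than 1.5-fold. Changes on this scale understate those of low genes. The study used DESeq2 for pairs of groups, which served here as an alternative. The text names the 10 largest positive and negative called interactions with a mean of at least 10 RPM in a group and on no list of other cell types, up to 5 opposite genes in each direction, 7 shared genes in each direction, 10 genes the study followed, up to 4 genes per list with the lowest interaction p, and 2 per list of other cells. Ccl22, Ccr3, Ccr7, Ebi3, Fcrla, Cd163, Mrc1, Ddx3y and Xist were chosen after their values were seen. Members and lists were chosen with earlier results of these data known. Fits were tested on simulated data. Positions are from GENCODE vM21 (GRCm38) by symbol.

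Alternatives were 0.1 as added value, no filter, RPM without factors, edgeR 4.0.16 and DESeq2 1.42.0 on the recovered reads, equal depth, 1 weight per group, the replicate number as a block, each subset alone, other thresholds and leaving out libraries. Leaving out Rnaset2-/- Ly6C low replicates 1 and 2 together was added after seeing the data. Liver libraries, the RNase T2 genes and the Ly6c genes were not analysed here.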

Additional observations from a re-analysis of the deposited data

Results flagged for a closer look

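By the interaction term of limma, the response to the loss of RNase T2 was called different between the subsets for 69 of the genes named in the text. The differences are given as Ly6C low minus Ly6C hi on the log2 scale. For Fcrl5, edgeR and DESeq2 gave the opposite sign without a call, so no difference in fold was shown. The interaction of Lox was not called by edgeR or DESeq2. The highest positive differences were 5.44 for Cd72, 5.08 for Camk2n1, 4.27 for Adam23, 4.26 for Cldn10, 4.09 for Blnk, 3.87 for Lox, 3.79 for F2rl1 and 3.79 for Cadm1. Lower positive values were 3.77 for Aqp1, 3.76 for Asb2, 3.75 for Cd5l, 3.57 for Il10, 3.28 for Fcrl5, 3.20 for Ccl3, 3.03 for Ccl2 and 2.90 for Rsad2. Next came 2.87 for Cxcl2, 2.82 for Fcrla, 2.61 for Ccl4, 2.32 for Spic, 2.32 for Ccnd2, 1.91 for Maff, 1.82 for Tlr12 and 1.65 for Mitf. Further positive values were 1.63 for Oasl1, 1.62 for Axl, 1.48 for Blvrb, 1.47 for Mrc1, 1.46 for Tlr3, 1.43 for Ptgs2, 1.43 for Bcl3 and 1.38 for Hmox1. Others were 1.36 for Per1, 1.33 for Pecam1, 1.25 for Clec4a3, 1.23 for Fcgr2b, 1.22 for Jun, 1.00 for Il1b and 0.68 for Bst2.

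The lowest negative differences were -3.48 for Cited4, -3.48 for Serpinb10, -3.15 for Ly6i, -3.01 for Coa6, -2.94 for Cd36, -2.80 for Rbm7, -2.72 for Ifi203 and -2.70 for Glt1d1. Less negative values were -2.59 for Cd83, -2.54 for Cd9, -2.43 for Tlr13, -2.29 for Alox5, -2.10 for Eno3, -2.01 for Ncor1, -1.98 for F630028O10Rik and -1.97 for Cd300e. Further down in size were -1.95 for Flt1, -1.89 for Hnrnpa0, -1.73 for Mcoln1, -1.55 for Trem3, -1.53 for Clec12a, -1.52 for Plac8, -1.47 for Clec7a and -1.40 for Pparg. Others below 0 were -1.16 for Il1rn, -1.12 for Gusb, -1.04 for Cxcr4, -0.83 for Tmpo, -0.75 for Ebi3 and -0.60 for Spi1.

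In Rnaset2-/- Ly6C low, the one group of 4 libraries, a single library lay far from the others (Dixon's test) for Asb2 in replicate 1 at 195 RPM against 46.8 to 60.5 RPM, Ccnd2 in replicate 1 at 106 RPM against 38.9 to 48.3 RPM, Ddit4 in replicate 1 at 545 RPM against 191 to 246 RPM, Klri1 in replicate 2 at 6.46 RPM against 1.35 to 1.92 RPM. The same held for Lox in replicate 1 at 63.9 RPM against 7.45 to 12.6 RPM, Ptgs2 in replicate 2 at 24.8 RPM against 18.4 to 19.4 RPM, Rsad2 in replicate 1 at 104 RPM against 16.2 to 22 RPM, Upp1 in replicate 2 at 13.3 RPM against 29.2 to 31.8 RPM. These are 8 of 95 genes checked. The limit is passed by about 1 in 20 of independent normal values. RPM of genes chosen from these same data need not be either, so no excess over chance can be read from the count. All of these libraries were replicate 1 or 2, which also stood apart in the marker sums; the part of those markers was not tested.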

How the results depend on the processing

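Leaving out 1 library at a time moved positive interaction calls between 475 and 1147 and negative ones between 384 and 905, with fewest when a wild-type Ly6C hi library (475 to 502 positive) or Rnaset2-/- Ly6C hi replicate 2 (384 negative) was left out. Leaving out wild-type Ly6C low replicate 2 or 3, Rnaset2-/- Ly6C hi replicate 3, or Rnaset2-/- Ly6C low replicate 1 or 4 also moved 1 or more of the counts below by over 1.5 times. Calls in Ly6C hi ranged from 1050 to 2202, in Ly6C low from 941 to 2010, shared higher genes from 42 to 149, shared lower from 113 to 191 and opposite genes from 40 to 126; an arm then left with 2 libraries shares the spread of the others. Without a filter, shared higher genes were 50 and opposite genes 44. RPM as deposited, which moved the median response of Ly6C hi from 0.025 to -0.100 and that of the interaction from -0.010 to 0.109, gave 445 negative interactions and 42 shared higher genes. DESeq2 gave 162 shared higher and 153 opposite genes, and 1 weight per group 178 and 141. Each subset fitted alone gave 2311 calls in Ly6C hi, 860 in Ly6C low and 49 shared higher genes. An adjusted p below 0.1 with no fold threshold gave 1254 negative interactions, 3317 and 3475 calls in Ly6C hi and Ly6C low, 385 shared higher, 345 shared lower and 285 opposite genes, and a threshold of more than 2-fold 295, 738, 799, 28, 67 and 30. Without Rnaset2-/- Ly6C low replicates 1 and 2 there were 1243 positive and 1070 negative interactions and 132 opposite genes, of which 54 were among the 87. Interactions of Fcrl5 by edgeR (-0.33) and DESeq2 (-0.60) and of Hist1h2ab without those replicates (-1.04, adjusted p = 0.0126, limma) were reversed in sign, the former with wild-type Ly6C hi libraries at 0 to 2 reads; the cause of the latter was not tested. Of the other values for 139 named genes under alternatives, 2866 kept their side of the threshold, 73 passed it only there and 114 no longer did. The 2866 include changes of sign with no call in either fit, as for Mki67 without Rnaset2-/- Ly6C low replicates 1 and 2. The replicate block gave 711 positive and 482 negative interactions and moved no other count by more than 1.5 times. Same-numbered subsets of 1 genotype deviated with correlations from -0.234 to 0.087. Rnaset2-/- Ly6C low replicate 2 alone held more than 1 read of Ddx3y, so number 2 does not pair the Rnaset2-/- subsets. For the other numbers, so few libraries cannot show whether the subsets share a mouse. Depth limits genes below about 1 RPM.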

Other observations

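Transcription factors of monocytes and macrophages are given by count too. Of 35 tested factors, 7 had a positive and 2 a negative interaction (Spi1 and Pparg), 9 fell and 2 rose in Ly6C hi, and 5 rose and 4 fell in Ly6C low macrophages. Over all tested genes, 8.35% had a positive and 6.38% a negative interaction. Of these, 9.0% fell and 6.45% rose in Ly6C hi, and 8.38% rose and 7.7% fell in Ly6C low macrophages. Mitf, a regulator of lysosomal genes, was at 19.7 to 21.6 RPM in wild-type and 11.3 to 14.3 RPM in Rnaset2-/- Ly6C hi libraries, and at 4.25 to 7.20 RPM and 10.1 to 17.0 RPM in Ly6C low libraries. Its interaction was 1.65 ± 0.26 (adjusted p = 0.00236, limma). Pparg, a receptor for fatty acids, rose in Ly6C hi libraries from 14.7 to 15.4 RPM to 28.2 to 39.0 RPM. It was at 216, 326, 435 and 443 RPM in Rnaset2-/- and 378 to 432 RPM in wild-type Ly6C low libraries, which overlapped (interaction -1.40 ± 0.34, adjusted p = 0.0157, limma).

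Of 20 tested growth factor, receptor, survival and cyclin genes, 4 had a positive interaction and 1, Flt1, a negative one. Ccnd2, a cyclin of the G1 phase, fell in Ly6C hi libraries from 21.9 to 26.2 RPM to 5.43 to 8.74 RPM. Ly6C low libraries held 27.5 to 34.5 RPM in wild-type and 106, 38.9, 41.4 and 48.3 RPM in Rnaset2-/- mice, with an interaction of 2.32 ± 0.39 (adjusted p = 0.00291, limma). Cxcr4, which retains monocytes in the marrow and the spleen, fell in Ly6C low macrophages from 2240.5 to 2709.8 RPM to 776 to 1328 RPM, and its change in Ly6C hi macrophages was -0.15 (interaction -1.04 ± 0.25, adjusted p = 0.016, limma).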
